A study of Mus musculus with 12 samples.

Results

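The Fc receptors and β2 integrins include surface receptors through which macrophages bind particles coated with IgG or complement. All 9 genes chosen by symbol for this group (Fcgr1, Fcgr2b, Fcgr3, Fcgr4, Fcer1g, Itgam, Itgax, Itgal and Itgb2) had a row among the 12960 genes of the count table, and all 9 were among the 10822 genes that passed the filter on low counts. They comprise 5 Fc receptor genes and 4 β2 integrin genes. RNA sequencing was done on bone marrow-derived macrophages (BMDMs) grown in M-CSF from L929-conditioned medium. The cells came from wild-type (WT) mice or from AMPKβ1-/- mice, which lack the β1 subunit (Prkab1) of the AMP-activated protein kinase. Cultures were exposed for 6 h to 10 μM PF-06409577 (PF), an activator of AMPK complexes that contain β1, or to 0.1% DMSO as vehicle. Each of the 4 groups (WT with vehicle, WT with PF, AMPKβ1-/- with vehicle and AMPKβ1-/- with PF) had 3 libraries. The labels give neither the age of the mice nor whether the libraries of a group came from separate animals or cultures, so the p-values measure the spread between these libraries.

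Fcγ receptors bind the constant part of IgG. Fcgr1, Fcgr3 and Fcgr4 encode activating receptors that signal through the shared γ chain encoded by Fcer1g, which carries the immunoreceptor tyrosine-based activation motif (ITAM), whereas Fcgr2b encodes the inhibitory receptor, which recruits phosphatases. The β2 integrins are pairs of an α subunit with the β2 subunit CD18 (Itgb2): Itgam encodes CD11b of complement receptor 3, Itgax encodes CD11c of complement receptor 4, and Itgal encodes CD11a of LFA-1, the receptor for ICAM-1. An α subunit reaches the cell surface only as a pair with β2.

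The libraries held between 8935609 and 14358180 counts. Prkab1 was at 43.4, 44.2 and 45.3 CPM (counts scaled to library size with TMM factors) in WT BMDMs with vehicle and at 41.9, 37.3 and 37.7 CPM with PF. It was at 8.39, 7.70 and 6.05 CPM in AMPKβ1-/- BMDMs with vehicle and at 9.41, 9.42 and 7.90 CPM with PF, below every WT library but not at 0. The counts are per gene and do not show which exons the remaining reads came from. All 8 macrophage markers were abundant, with a sum between 25219 and 29928 CPM. The summed markers of neutrophils reached at most 1.57 CPM and those of dendritic cells 1.46 CPM. Those of B cells reached 2.35, of mast cells 4.02 and of fibroblasts 8.66 CPM. Only 6 of 10 listed neutrophil and 5 of 7 dendritic cell markers had a row in the count table. Of the B cell list 1 of 6 had a row (Cd79b), and of the mast cell list 1 of 5 (Kit). The markers without a row could not be assessed. Only 3 of the 7 listed T and NK cell markers had a row, and the others could not be assessed. They summed to 5.65 to 14.2 CPM, nearly all of it Cd4, whereas Cd3d had at most 2 counts in a library. Cd4 was lower in AMPKβ1-/- than in WT BMDMs with vehicle (-1.15 on the log2 scale) and with PF (-1.19). Kit, at most 4.02 CPM, was called higher with PF in WT (1.42 on the log2 scale). It was called lower in AMPKβ1-/- than in WT BMDMs, at -1.27 with vehicle and -2.05 with PF. The part of Cd4-expressing or Kit-expressing cells in the differences below was not tested. In bulk RNA, fewer cells of a type and less RNA per cell cannot be told apart. The libraries also differed in how counts depended on base composition. The slope of log2 CPM on transcript GC content, per 10 percentage points, was 0.36 to 0.72 in WT with vehicle, -0.05 to 0.37 in WT with PF, -0.36 to -0.10 in AMPKβ1-/- with vehicle and -0.51 to -0.33 in AMPKβ1-/- with PF. The transcripts of the 9 receptors had a GC content between 45.4% (Fcgr2b) and 53.2% (Itgal), around the median of 50.1% of the tested genes, and their fold changes are therefore also given with a GC and length offset below.

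Per kilobase of the longest coding transcript, the shared γ chain was the highest of the 9 in every group. In WT BMDMs with vehicle, Fcer1g was at 1180 ± 154 CPM per kilobase (SD, n = 3). It was followed by Itgb2 at 344 ± 16.8 and Fcgr3 at 319 ± 45.3, whose libraries overlapped, so that the order of this pair is not set beyond the spread. Fcgr1 came next at 205 ± 12.5, Itgam at 124 ± 13.4, Itgal at 42.4 ± 5.28 and Fcgr4 at 25.6 ± 0.930 CPM per kilobase. The inhibitory Fcgr2b, at 8.14 ± 0.803, and Itgax, at 1.85 ± 0.0750 CPM per kilobase, were the lowest. From Fcgr3 downward no neighbours in this order overlapped in WT BMDMs with vehicle. In WT BMDMs with PF, Itgal (26.1 ± 1.21) and Fcgr4 (25.2 ± 2.38) overlapped. The choice of transcript matters most for Itgb2, for which the mean length of the coding transcripts in place of the longest gave 773 CPM per kilobase in WT with vehicle.

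**Figure D1:**
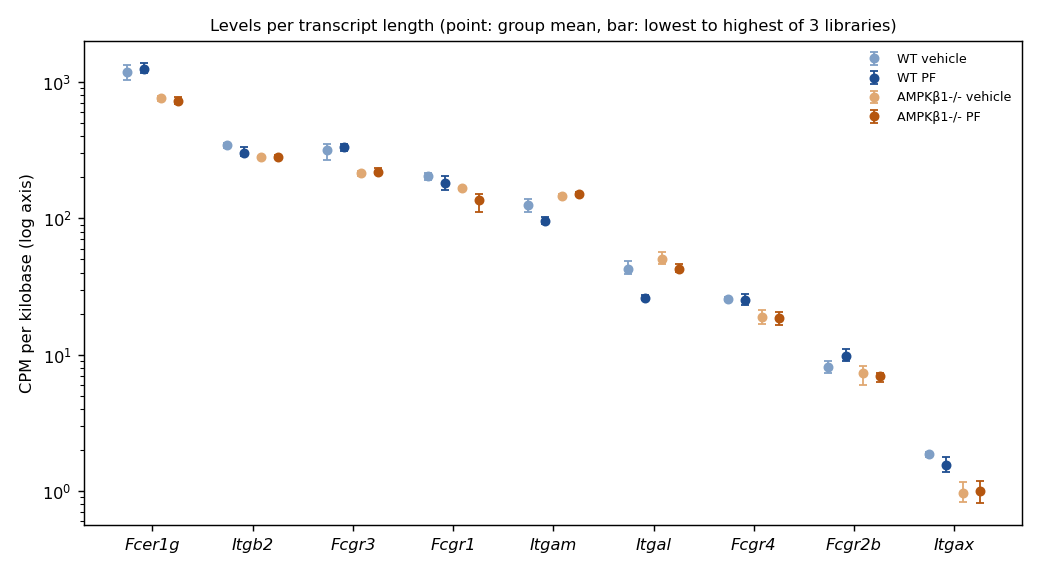
Level of each receptor gene as CPM per kilobase of its longest coding transcript (log axis), by group, with the group mean as a point and the lowest and highest of 3 libraries as the bar. Fcer1g is highest and Itgax lowest in all 4 groups, and Itgal drops to the level of Fcgr4 in the WT group with PF.

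Of the activating receptors, Fcgr1 (CD64, the high-affinity receptor for IgG) lies on chromosome 3 at 96282909-96293969 of GRCm38. It was at 496, 533 and 561 CPM in WT BMDMs with vehicle and at 532, 465 and 420 CPM with PF. The AMPKβ1-/- libraries were at 420, 426 and 443 CPM with vehicle and at 383, 389 and 288 CPM with PF. The WT treatment groups overlapped, and each AMPKβ1-/- group with vehicle or PF lay below the WT group of the same treatment.

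The low-affinity activating receptor Fcgr3 (chromosome 1, 171051174-171064935, minus strand) was at 477, 453 and 361 CPM in WT with vehicle and at 474, 459 and 419 CPM in WT with PF. Without AMPKβ1 the values were 274, 289 and 299 CPM with vehicle and 287, 317 and 286 CPM with PF. All 6 AMPKβ1-/- libraries lay below all 6 WT libraries.

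Fcgr4, an activating receptor that lies between Fcgr2b and Fcgr3 (chromosome 1, 171018920-171029761, plus strand), was much lower. It was at 33.1, 32.4 and 30.9 CPM in WT with vehicle and at 35.0, 30.7 and 29.2 CPM in WT with PF. The AMPKβ1-/- values were 21.2, 23.9 and 26.6 CPM with vehicle and 26.0, 22.9 and 20.6 CPM with PF, again with all 6 libraries below the 6 WT libraries.

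The γ chain Fcer1g (chromosome 1, 171229572-171234365, minus strand) was at 919, 790 and 710 CPM in WT with vehicle and at 802, 938 and 828 CPM in WT with PF. Its level in AMPKβ1-/- BMDMs was 496, 541 and 529 CPM with vehicle and 529, 497 and 474 CPM with PF. As for Fcgr3, treatments overlapped within a genotype and the genotypes did not overlap.

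The inhibitory Fcgr2b (chromosome 1, 170958617-170976547, minus strand) was at 28.5, 31.8 and 26.2 CPM in WT with vehicle and at 33.4, 32.0 and 38.9 CPM in WT with PF, with every PF library above every vehicle library. It was at 21.3, 29.1 and 27.6 CPM in AMPKβ1-/- with vehicle and at 25.7, 26.1 and 22.2 CPM in AMPKβ1-/- with PF, where the treatments overlapped. Part of the extracellular coding sequence of Fcgr2b and Fcgr3 is nearly the same, and the stretch of 150 bases in exon 4 of both genes is shown because reads of 50 bases from it can be shared by the inhibitory and the activating receptor. The sequences come from the GENCODE M21 transcripts and are written 5′ to 3′ on the transcribed strand (GRCm38, minus strand, chr1:170966523-170966672 for Fcgr2b and chr1:171054016-171054165 for Fcgr3). Capitals mark the 2 adjacent positions at which they differ, and the other 148 are identical.
Fcgr2b: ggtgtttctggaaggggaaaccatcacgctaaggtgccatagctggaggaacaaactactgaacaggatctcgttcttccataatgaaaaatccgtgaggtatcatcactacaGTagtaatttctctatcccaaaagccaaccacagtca
Fcgr3: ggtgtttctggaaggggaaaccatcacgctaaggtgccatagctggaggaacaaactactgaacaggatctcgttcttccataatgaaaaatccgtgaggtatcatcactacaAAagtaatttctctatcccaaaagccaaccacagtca
Of all 50-base words of the longest Fcgr3 transcript, 12.8% also occur in Fcgr2b. Of those of Fcgr2b, 11.4% occur in another gene, Fcgr3 or genes that share repeats with it. The split of reads between Fcgr2b and Fcgr3 rests on Salmon's estimate, and its error was not tested. Fcgr1, Fcgr4, Fcer1g and Itgal shared no such word with another gene.

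**Figure D2:**
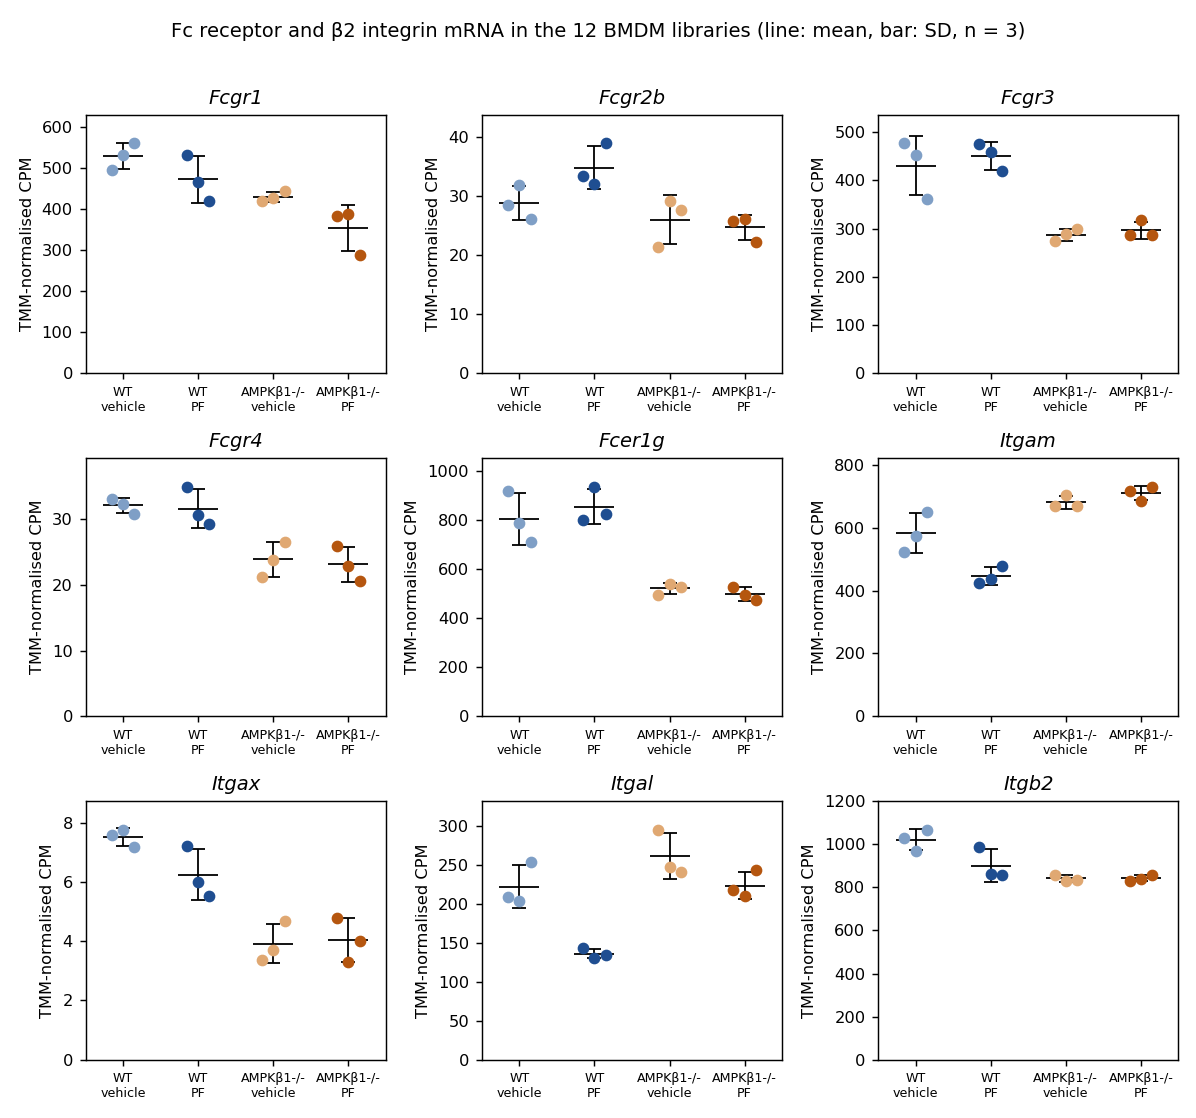
TMM-normalised CPM of the 9 receptor genes in each of the 12 libraries, by group, with the mean as a line and the SD as a bar (n = 3, axes start at 0). Fcgr3, Fcgr4 and Fcer1g separate the genotypes, whereas Itgal and Itgam are lower in the 3 WT libraries with PF than in all others.

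Among the integrins, Itgal (CD11a; chromosome 7, 127296260-127335138, plus strand) was at 208, 203 and 253 CPM in WT with vehicle and at 143, 131 and 135 CPM in WT with PF. Its AMPKβ1-/- values were 294, 247 and 240 CPM with vehicle and 217, 209 and 243 CPM with PF. The 3 WT libraries with PF were the lowest of the 12 and overlapped with no other group.

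Itgam (CD11b; chromosome 7, 128062640-128118491, plus strand) was also lowest in WT with PF. It was at 523, 574 and 649 CPM in WT with vehicle, at 423, 435 and 478 CPM in WT with PF, at 670, 704 and 668 CPM in AMPKβ1-/- with vehicle and at 716, 684 and 730 CPM in AMPKβ1-/- with PF. Its 3 WT libraries with PF lay below the other 9. GENCODE M21 holds a second coding gene, Gm49368 (chromosome 7, 128062683-128128160, plus strand), over the same locus, with which 72.4% of the 50-base words of the Itgam transcript are shared. Gm49368 had no row in the count table, and how the authors' transcript set treated it was not tested.

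Itgax (CD11c; chromosome 7, 128129547-128150657, plus strand), a marker of dendritic cells that some macrophages also carry, had only 37 to 84 counts per library. It was at 7.59, 7.75 and 7.17 CPM in WT with vehicle and at 7.20, 5.99 and 5.54 CPM in WT with PF. The AMPKβ1-/- libraries had 3.37, 3.72 and 4.67 CPM with vehicle and 4.79, 3.30 and 4.0 CPM with PF, below all WT libraries. Of the 50-base words of the longest Itgax transcript, 9.61% also occur in Itgad, which had no row in the count table.

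The shared β2 subunit Itgb2 (chromosome 10, 77530252-77565708, plus strand) varied least of the 9, by 1.29-fold between the lowest and the highest library. It was at 1029, 968 and 1067 CPM in WT with vehicle and at 989, 860 and 856 CPM in WT with PF. In AMPKβ1-/- BMDMs it was at 858, 832 and 835 CPM with vehicle and at 830, 839 and 860 CPM with PF. WT with vehicle was above both AMPKβ1-/- groups, and WT with PF overlapped with them and with WT with vehicle.

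The first comparison asked how PF changed these genes in WT BMDMs. The α subunits Itgal and Itgam fell, and no Fc receptor passed the test. Itgal fell by 0.70 on the log2 scale (SE 0.10, 95% interval -0.92 to -0.49, edgeR quasi-likelihood adjusted p = 0.0011), to 0.615-fold of the vehicle level. Itgam fell by 0.39 (SE 0.083, 95% interval -0.56 to -0.21, adjusted p = 0.0095), to 0.766-fold. These were 2 of 9 genes called, both lower, where 15.9% of all tested genes were called and 8.95% were called lower. The groups did not overlap for Itgal and Itgam (lower) nor for Fcgr2b (higher), 3 of 9, beside 32.2% of all tested genes. No gene of the 9 passed the additional threshold of 0.8 on the log2 fold change, beside 1.52% of all tested genes. The call of Itgam was lost without WT PF library 2 (adjusted p = 0.0504), which left Itgal as the called gene. Itgb2, at -0.18 on the log2 scale, missed the threshold (adjusted p = 0.098) and passed it without WT PF library 1 (-0.25, adjusted p = 0.0187). Fcgr2b was at 0.27 (95% interval -0.0010 to 0.54, adjusted p = 0.14). The intervals of the other genes were -0.40 to 0.065 for Fcgr1, -0.13 to 0.27 for Fcgr3, -0.26 to 0.22 for Fcgr4, -0.11 to 0.28 for Fcer1g and -0.64 to 0.11 for Itgax, none of which passed the test. The median of the 9 log2 fold changes was -0.17, beside 0.0048 over all tested genes.

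In AMPKβ1-/- BMDMs the same treatment left no gene of the 9 past the threshold, where 0.0554% of all tested genes were called. At an unadjusted p under 0.05 there were 2, Fcgr1 at -0.28 (adjusted p = 0.79) and Itgal at -0.23 (adjusted p = 0.95), beside 4.98% of all tested genes. DESeq2 and limma-voom called none of the 9 either. Fcgr1 was the single gene whose libraries did not overlap, lower with PF, beside 14.5% of all tested genes. Itgam was at 0.061 on the log2 scale (95% interval -0.11 to 0.24).

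Whether the response to PF differed between the genotypes was tested directly. None of the 9 differences passed the threshold with edgeR, where 0.416% of all tested genes were called. At an unadjusted p under 0.05 there were 2, beside 14.3% of all tested genes. Itgam had a response lower by 0.45 in WT than in AMPKβ1-/- BMDMs (95% interval -0.69 to -0.20, adjusted p = 0.11). Itgal had a response lower by 0.47 (95% interval -0.78 to -0.17, adjusted p = 0.15). For Itgam the difference was called by DESeq2 (adjusted p = 0.0171) and with the GC and length offset (adjusted p = 0.0044), and the adjusted p over all alternatives ranged from 0.0044 to 0.29. For Itgal it was called by none, with a range from 0.060 to 0.37. Of the Fc receptors, Fcgr2b had the largest difference, at 0.35 (95% interval -0.039 to 0.73, adjusted p = 0.40).

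The genotypes themselves differed in most of the 9 genes. With vehicle, 7 of 9 were called between AMPKβ1-/- and WT BMDMs, but so were 59.7% of all tested genes, 30% lower and 29.7% higher. The 6 lower genes were Itgax (-0.95 on the log2 scale, SE 0.19, adjusted p = 0.00062), Fcer1g (-0.63), Fcgr3 (-0.58), Fcgr4 (-0.43), Fcgr1 (-0.30) and Itgb2 (-0.28), and Itgam was higher by 0.23. Itgal, at 0.24, lay just outside the threshold (adjusted p = 0.051) and passed it in 10 of 16 alternatives, among them DESeq2 (adjusted p = 0.032) and each other scaling and filter. Among the vehicle libraries, leaving out WT 2, WT 3, AMPKβ1-/- 1 or AMPKβ1-/- 2 ended the call of Fcgr1 (adjusted p = 0.025 with all libraries, up to 0.083). Leaving out WT 1, WT 2, AMPKβ1-/- 2 or AMPKβ1-/- 3 ended that of Itgam (adjusted p = 0.028 with all libraries, up to 0.13). Scaling by library size alone ended the calls of Fcgr1 (-0.094), Itgb2 (-0.069) and Fcgr4 (adjusted p = 0.11). Upper quartile scaling also ended that of Fcgr1 (-0.25, adjusted p = 0.056). Itgax was the single gene past 0.8 on the log2 scale, beside 17.8% of all tested genes. The libraries did not overlap for 7 of the 9 genes, beside 62.9% of all tested genes. The comparison uses the same WT vehicle libraries as the PF comparison in WT.

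With PF, 8 of 9 genes were called between the genotypes, beside 47.1% of all tested genes (22.9% lower, 24.1% higher). No gene of the 9 passed 0.8 on the log2 scale, beside 14.3% of all tested genes. Itgal (0.71, adjusted p = 7.16e-05) and Itgam (0.67, adjusted p = 2.18e-05) were higher in AMPKβ1-/- BMDMs, at 1.64-fold and 1.59-fold of the WT level. The lower genes were Fcer1g (-0.77), Itgax (-0.63), Fcgr3 (-0.60), Fcgr2b (-0.49), Fcgr4 (-0.45) and Fcgr1 (-0.42). Itgb2 was at -0.10 (adjusted p = 0.29). Itgax lost its call without WT PF library 1 (adjusted p = 0.0567) or AMPKβ1-/- PF library 2 (adjusted p = 0.0629). Scaling by library size alone ended the call of Fcgr2b (adjusted p = 0.053). The libraries did not overlap for 8 of the 9 genes, beside 59.9% of all tested genes.

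**Figure D3:**
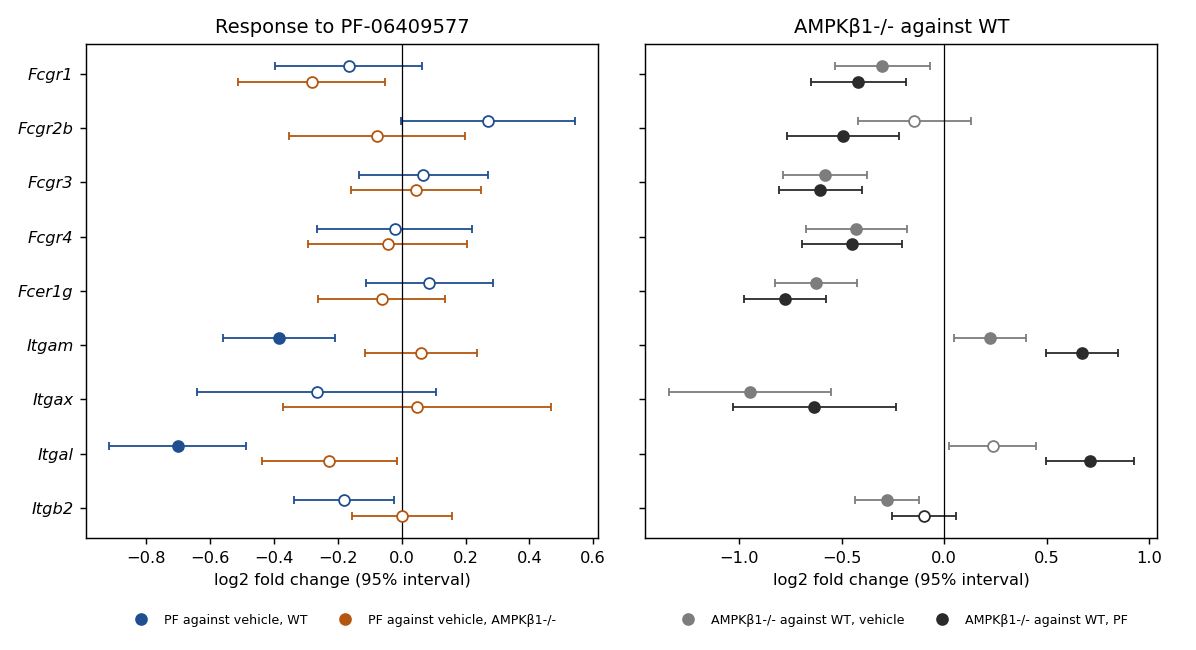
Log2 fold changes of the 9 receptor genes with 95% intervals, for PF against vehicle in each genotype (left) and for AMPKβ1-/- against WT BMDMs with each treatment (right), with filled points for an adjusted p below 0.05. On the left the filled points are Itgam (-0.39) and Itgal (-0.70) in WT; on the right the Fc receptors lie below 0 and Itgam and Itgal above it.

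An α subunit and β2 can be set against each other within a library, since a ratio does not depend on a single scaling factor per library. It can still move with base composition, and means with the GC and length offset are given where they moved most. In WT BMDMs the log2 ratio of Itgal to Itgb2 per kilobase was -3.12, -3.07 and -2.89 in the vehicle libraries and -3.60, -3.53 and -3.48 in the PF libraries. The AMPKβ1-/- ratios were -2.36, -2.56 and -2.61 in the vehicle libraries and -2.75, -2.82 and -2.64 in the PF libraries. No group overlapped with another, and the mean was lower with PF in both genotypes. With the offset the means were -2.94 and -3.43 in WT with vehicle and PF, and -2.60 and -2.84 in AMPKβ1-/- BMDMs. WT with vehicle (up to -2.87) and AMPKβ1-/- with PF (down to -2.88) then overlapped. The ratio of Itgam to Itgb2 averaged -1.47 and -1.67 in WT with vehicle and PF, where the libraries overlapped, and -0.96 and -0.90 in AMPKβ1-/- BMDMs. With the offset these means were -1.23, -1.60, -1.10 and -1.08, so that the genotype difference with vehicle went from 0.51 to 0.13 and the PF change in WT from -0.20 to -0.37. The ratio of Itgax to Itgb2 went the other way between genotypes, with means of -7.53 and -7.63 in WT and of -8.21 and -8.17 in AMPKβ1-/- BMDMs.

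**Figure D4:**
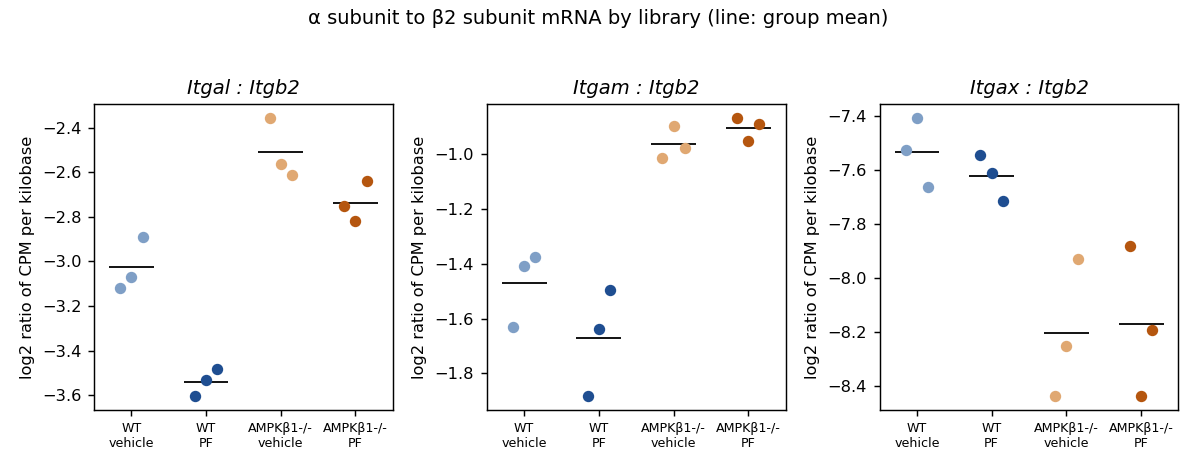
Log2 ratio of CPM per kilobase of each α subunit to Itgb2 in the 12 libraries, by group, with the group mean as a line. The Itgal ratio is lowest in WT with PF (-3.60 to -3.48), and the Itgam ratio lies between -1.01 and -0.87 in all AMPKβ1-/- libraries, above all WT libraries.

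Within the Fc receptors the balance of the inhibitory receptor against the sum of the activating receptors was less distinct. The log2 ratio of Fcgr2b to the sum of Fcgr1, Fcgr3 and Fcgr4 per kilobase averaged -6.08 in WT with vehicle, -5.79 in WT with PF, -5.77 in AMPKβ1-/- with vehicle and -5.75 in AMPKβ1-/- with PF. The offset turned the direction between the genotypes, with means of -5.71, -5.65, -5.99 and -6.04 in the same order, a difference with vehicle of -0.27 in place of 0.31, and a PF change in WT of 0.069 in place of 0.29. The ratio of Fcer1g to the same sum averaged 1.10, 1.21, 0.94 and 0.97 in that order, and 1.03, 1.10, 1.00 and 1.08 with the offset. Set against the complement receptor, Fcer1g over Itgam was 3.24 and 3.72 on the log2 scale in WT with vehicle and PF, and 2.40 and 2.27 in AMPKβ1-/- BMDMs. With the offset the genotype difference of this ratio was smaller, at -0.47 with vehicle and -0.93 with PF.

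Fold changes went with base composition across the genome-wide table. Over all tested genes the Spearman correlation of the log2 fold change with GC content was -0.76 for the genotypes with vehicle and -0.71 for PF in WT, as a description across genes. With an offset for GC content and length, the PF response in WT was -0.42 for Itgam (adjusted p = 0.00012) and -0.54 for Itgal (adjusted p = 9.81e-05), so both calls were kept. Fcgr2b moved from 0.27 to 0.0045 and Itgb2 from -0.18 to -0.044. Between the genotypes with vehicle, the offset kept Itgax (-0.84), Fcgr3 (-0.47), Fcgr4 (-0.42) and Fcer1g (-0.36) lower. It ended the calls of Fcgr1 (-0.097, adjusted p = 0.45), Itgb2 (-0.020, adjusted p = 0.79) and Itgam (0.11, adjusted p = 0.12), and added calls for Fcgr2b (-0.59, adjusted p = 0.00032) and Itgal (0.33, adjusted p = 0.0012). Between the genotypes with PF, Itgal (0.66), Itgam (0.59), Fcgr2b (-0.72), Itgax (-0.57), Fcgr3 (-0.37), Fcer1g (-0.35, from -0.77) and Fcgr1 (-0.27) stayed called with the offset, and the call of Fcgr4 ended (-0.26, adjusted p = 0.0501). The part of GC content in these differences was not tested beyond this offset.

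**Figure D5:**
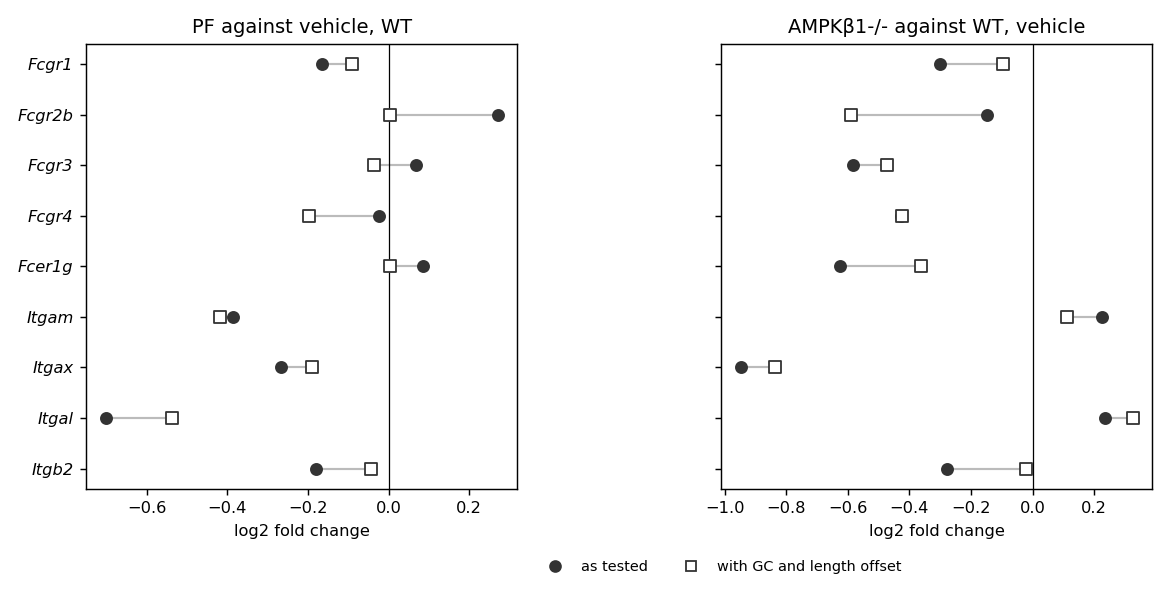
Log2 fold changes of the 9 genes as tested (filled circles) and with the GC and length offset (open squares), for PF against vehicle in WT BMDMs (left) and AMPKβ1-/- against WT BMDMs with vehicle (right). Itgal and Itgam stay below 0 on the left, whereas Itgb2 (from -0.28 to -0.020) and Fcgr1 (from -0.30 to -0.097) move close to 0 on the right.

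Many myeloid promoters carry sites for PU.1, the macrophage factor encoded by Spi1. RefSeq promoters (GRCm38.p6, 250 bases before to 50 bases after the start) were matched for 7 of the 9 genes, Itgal and Itgb2 being without an entry, and were searched on both strands for the core letters GAGGAA. They occurred in 4 of the 7 genes, Fcgr1, Fcgr3, Fcgr4 and Itgam, beside 28.3% of the 32851 promoters in the table. This share counts promoters and not genes, and the 7 genes had 8 promoters. The promoters of Itgam, which changed with PF in WT, of Fcgr3 and Fcgr4, which differed between the genotypes, and of Fcer1g, which followed Fcgr3 without holding these letters, are shown 5′ to 3′ on the strand of the gene, with the matches on either strand in capitals. They are chr7:128062390-128062689 (plus strand), chr1:171059354-171059653 (minus), chr1:171018676-171018975 (plus) and chr1:171234300-171234599 (minus).
Itgam: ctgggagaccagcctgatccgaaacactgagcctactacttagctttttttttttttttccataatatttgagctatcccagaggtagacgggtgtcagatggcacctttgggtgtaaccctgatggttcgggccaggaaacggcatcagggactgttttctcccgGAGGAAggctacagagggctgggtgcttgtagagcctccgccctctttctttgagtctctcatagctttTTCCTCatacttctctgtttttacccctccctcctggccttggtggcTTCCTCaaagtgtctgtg
Fcgr3: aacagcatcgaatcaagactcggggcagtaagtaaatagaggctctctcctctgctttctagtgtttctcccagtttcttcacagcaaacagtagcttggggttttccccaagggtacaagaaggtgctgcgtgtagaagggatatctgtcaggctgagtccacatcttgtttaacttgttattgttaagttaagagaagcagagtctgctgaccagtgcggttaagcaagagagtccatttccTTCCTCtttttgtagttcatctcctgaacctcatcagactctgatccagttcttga
Fcgr4: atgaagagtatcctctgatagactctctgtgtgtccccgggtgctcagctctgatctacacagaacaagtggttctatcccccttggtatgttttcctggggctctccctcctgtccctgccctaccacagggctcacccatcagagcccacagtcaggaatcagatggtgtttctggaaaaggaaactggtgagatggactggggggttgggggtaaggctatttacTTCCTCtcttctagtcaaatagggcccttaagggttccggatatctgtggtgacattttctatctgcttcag
Fcer1g: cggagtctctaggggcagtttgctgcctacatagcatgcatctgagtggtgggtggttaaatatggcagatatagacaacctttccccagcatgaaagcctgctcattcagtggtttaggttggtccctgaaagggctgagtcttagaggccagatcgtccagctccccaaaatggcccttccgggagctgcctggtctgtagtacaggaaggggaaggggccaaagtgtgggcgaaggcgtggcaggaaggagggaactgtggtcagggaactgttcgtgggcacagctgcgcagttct
The matches began 84 and 15 bases before and 32 bases after the start of Itgam and 22 bases before that of Fcgr4. In Fcgr3 the match began 6 bases before the start shown and 15 bases before another RefSeq start of the gene. In Fcgr1 the match began 55 bases before the start. A match is a description of letters and not a measured site. Spi1 itself was between 670 and 1076 CPM. It was lower with PF in WT (-0.39 on the log2 scale, adjusted p = 0.016) and lower in AMPKβ1-/- BMDMs with vehicle (-0.44, adjusted p = 0.0010), and its part in the receptor levels was not tested. Csf1r (-0.58) and Cd14 (-0.43) were the other macrophage markers that fell with PF in WT. They made 3 of 8 in all, beside 8.95% of all tested genes called lower, and the other 5 did not pass the test. Whether these 3 calls hold without a library or with the GC and length offset was not tested.

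Signalling below the Fc receptors was described with lists of named genes. Their counts with PF in WT BMDMs stand beside 8.95% of all tested genes called lower and 6.99% called higher. Of 23 ITAM signalling genes, 7 fell and 1 rose. The Src family kinase Fgr fell by 0.68 (adjusted p = 0.0019), and the adaptor Lat2 rose by 0.32 (adjusted p = 0.029). The count of 7 fell to 1 when library 1 or 3 of WT with vehicle, or library 2 or 3 of WT with PF, was left out, and Lat2 was among the calls that such a step ended. Fgr went from 32.7 ± 1.69 to 20.5 ± 1.83 CPM in WT and from 23.4 ± 2.27 to 25.7 ± 1.56 CPM in AMPKβ1-/- BMDMs (SD, n = 3).

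Of 10 genes of inhibitory signalling downstream of Fcgr2b, 6 fell and 1 rose. The count of 6 ranged from 4 to 6 without each library in turn and from 3 to 6 under the other alternatives. The largest changes were in the adaptors Dok2 (-0.73, adjusted p = 0.00059) and Dok3 (-0.57, adjusted p = 0.0019). The lipid phosphatase Inpp5d (SHIP1), which Fcgr2b recruits, fell by 0.41 (adjusted p = 0.0077). Whether the call of Inpp5d holds without a library or with the GC and length offset was not tested for this gene. The ubiquitin ligase Cblb was higher by 0.25 (adjusted p = 0.044), a call that was lost without 4 of the 6 WT libraries in turn (WT vehicle 1 or 2, WT PF 2 or 3). The median of the 10 genes was -0.33, beside 0.0048 over all tested genes.

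On the integrin side, 8 of 20 genes of integrin activation and adhesion fell and 1 rose. Coro1a, an actin-binding protein of leukocytes, fell by 0.56 (adjusted p = 0.0018) and the crosslinker Flna by 0.51 (adjusted p = 0.0023), and both calls held without each WT library in turn. Talin (Tln1, -0.48, adjusted p = 0.0073) and kindlin-3 (Fermt3, -0.38, adjusted p = 0.00995), which bind the β subunit and switch integrins on, fell as well. Whether the calls of Tln1 and Fermt3 hold without a library or with the GC and length offset was not tested gene by gene. The adaptor Skap2 was higher by 0.25, with a sign that turned under the GC and length offset (-0.11), and its call was lost without library 1 or 3 of WT with vehicle and without library 2 or 3 of WT with PF. Without WT PF library 3, 5 of the 20 genes were called lower.

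Of 4 tested ligands of β2 integrins, 3 fell, among them Icam1, the ligand of LFA-1, from 210 ± 18.5 to 144 ± 6.08 CPM (-0.55, adjusted p = 0.0013). F11r (JAM-A, a ligand of LFA-1) was at -0.54 (adjusted p = 0.022) and C3, whose fragments are ligands of complement receptor 3, at -0.42 (adjusted p = 0.030). A single gene of the list, Icam1, remained called when library 1 or 3 of WT with vehicle, or library 3 of WT with PF, was left out. Of 4 tested other Fc receptors, Fcgrt (the neonatal Fc receptor, -0.52, adjusted p = 0.0044) and Fcrls (-0.43, adjusted p = 0.016) fell. The call of Fcrls was lost without library 1 of WT with vehicle or library 3 of WT with PF.

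Other integrin subunits moved in both directions, with 2 of 9 higher and 2 lower. Itgb3 rose from 4.89 ± 0.593 to 8.54 ± 0.881 CPM (0.81, adjusted p = 0.018) and Itgb1 by 0.45 (adjusted p = 0.025), whereas Itga5 (-0.52) and Itgb5 (-0.45) fell. Neither Itgb1 nor Itgb3 was called without library 1 of WT with vehicle or library 3 of WT with PF, and Itgb1 was also lost without the vehicle library 3 or the PF library 2. Of 29 genes of the actin machinery of the phagocytic cup, 8 fell, led by Rhog (-0.49, adjusted p = 0.0037) and the myosin Myo1g (-0.41, adjusted p = 0.0042), and Actr3 was higher (0.43, adjusted p = 0.033). The count of 8 went down to 3 without WT PF library 3, 4 without WT PF library 2 and 5 without WT vehicle library 3, and Actr3 was called in 2 of the 6 such steps. Of 5 NADPH oxidase genes, Ncf1 fell (-0.36, adjusted p = 0.014), a call lost without library 1 of WT with vehicle or library 2 or 3 of WT with PF. With the GC and length offset, Actr3 (0.082, adjusted p = 0.47), Itgb1 (0.14, adjusted p = 0.17) and Cblb (0.11, adjusted p = 0.40) lost their calls, whereas Lat2 (0.36) and Itgb3 (0.93) kept theirs. Of the genes that stayed called lower, Fcrls had a larger change (-0.51), and smaller changes were found for Coro1a at -0.34, Flna at -0.29, Dok3 at -0.33, Icam1 at -0.34, Fcgrt at -0.34, Itga5 at -0.27, Itgb5 at -0.21, Rhog at -0.32, Myo1g at -0.19 and Ncf1 at -0.22. In AMPKβ1-/- BMDMs no gene of these 8 lists passed the test with PF, where only 0.0554% of all tested genes were called. The direct test of the difference between genotypes called only 1 ITAM signalling and 1 inhibitory signalling gene, beside 0.416% of all tested genes. Several genes that fell with PF in WT were already lower in AMPKβ1-/- than in WT BMDMs with vehicle. Among them were Coro1a (-0.58), Rhog (-0.51), Myo1g (-0.44) and Itgb5 (-0.43), where 30% of all tested genes were called lower. Others, such as Itga5 (-0.22) and F11r (-0.26), were not called.

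As a description of likeness, the tested genes with the highest Pearson correlation of log2 CPM with each receptor over the 12 libraries were listed. All of these values share the same 12 libraries and their differences in genotype and base composition. Fcgr1 was most like Lgals9 (0.97), Dhx58 and Zbp1, genes known as interferon-responsive. Itgam was most like Jarid2 (0.98), Yeats2 and Phf21a, and Itgal most like Spata13 (0.98), Bicra and Abcc1. Fcer1g was most like Slc25a3 (0.99), Tmem50a and Cd63, Fcgr3 most like Rpl29 (0.99), Tmsb10 and Spg21, and Fcgr4 most like Srd5a3 (0.97), Wdr55 and Hmox2. The nearest genes of Fcgr2b were Farsb (0.95), Fuca2 and Mcee, those of Itgax were Coq8a (0.97), Rapsn and Cd22, and those of Itgb2 were Faap100 (0.98), Nr2f6 and Gemin5.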

How the data were processed

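RNA sequencing of 12 BMDM libraries was analysed from the deposited table of estimated counts per gene. Per the paper's methods, the authors checked paired-end reads of 50 bases with MultiQC, trimmed them with Trim Galore, quantified transcripts with Salmon and used DESeq2. The genome build, tool versions, strand setting and filter of the table are not given in the sources used here. The deposited values are whole numbers that were used as counts without further rounding.

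Columns were assigned to groups by genotype and treatment in their names, and the numbers 1 to 3 name libraries without pairing them. The labels give no replicate numbers, and the deviations of libraries with the same column number correlated between -0.17 and 0.32, so no pairing was used. Genes were filtered with filterByExpr, scaled by TMM and tested in 1 edgeR 4.0.16 quasi-likelihood fit of the 4 groups (R 4.3.3), with Benjamini-Hochberg adjustment over 10822 genes and a threshold of 0.05. Intervals are 95% intervals of the fitted fold change. DESeq2 1.42.0, limma 3.58.1 (voom), 3 other scalings, 2 other filters, a natural-spline offset for GC content and length (5 degrees of freedom, GENCODE M21 transcripts), a fit to each contrast alone and the omission of each library were alternatives. Members and gene lists were chosen with earlier results of these data known. The named pathway genes were the 2 with the smallest p in each direction among those called with PF in WT, plus any called in the difference between genotypes, and 1 gene that this rule names is not reported here. Inpp5d, Tln1, Fermt3, C3, Csf1r and Cd14 were named after their values were seen. Symbols were matched to the annotation for 12703 genes directly and for 200 by an older symbol. The scripts were tested on simulated data. The authors' gene-level comparisons were not used here.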

Additional observations from a re-analysis of the deposited data

Results flagged for a closer look

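The response to PF differed between the genotypes by a direct test for 2 signalling genes, where 0.416% of all tested genes were called. They were 1 of 23 ITAM signalling genes and 1 of 10 genes of inhibitory signalling. For Fgr, a Src family kinase of ITAM signalling, the log2 response was lower by 0.81 in WT than in AMPKβ1-/- BMDMs (-0.81, adjusted p = 0.036), and the adjusted p without each library in turn ranged from 0.020 to 0.13, with the call kept in 3 of 12 such steps. For Dok2, an adaptor of inhibitory signalling, the difference was -0.77 (adjusted p = 0.020), with an adjusted p from 0.0062 to 0.087 and the call kept in 7 of 12 steps. Both genes were already lower in AMPKβ1-/- than in WT BMDMs with vehicle (Fgr -0.48, Dok2 -0.62 on the log2 scale). With PF the same comparison gave 0.33 for Fgr and 0.15 for Dok2.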

How the results depend on the processing

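Across 765 combinations of a receptor gene, a comparison and an alternative, 697 kept their direction and their side of the threshold, 21 called values lost their call, 14 gained one and 33 turned direction, none of the last on a called value. With PF in WT, 2 genes were called, 1 in the fit to the contrast alone, 0 with the added log2 threshold of 0.8, and 1 to 3 without each library in turn (1 without WT PF library 2, 3 without WT PF library 1). For the difference of the PF responses none was called, but 1 with DESeq2 and 1 with the GC and length offset (Itgam in both). Between the genotypes, the threshold of 0.8 left 1 of 7 genes with vehicle and 0 of 8 with PF. Directions turned for uncalled values. In WT with PF, Fcgr3 went to -0.037 with the GC and length offset, and Fcgr4 to 0.0068 with upper quartile scaling and 0.056 with library size alone. In AMPKβ1-/- with PF, Fcer1g went to 0.018 with the offset, and Itgb2 to -0.00025 with upper quartile scaling and -0.0019 in the fit to the contrast alone. For the difference of the responses, the offset gave -0.10 for Fcgr3, -0.17 for Fcgr4 and -0.015 for Fcer1g. Between genotypes, Fcgr2b with vehicle went to 0.062 with library size alone, and Itgb2 with PF to 0.053 with library size alone and 0.061 with the offset. Leaving out each library in turn gave ranges across 0 with PF in WT for Fcgr3 (-0.044 to 0.15) and Fcgr4 (-0.10 to 0.041), with PF in AMPKβ1-/- for Fcgr2b (-0.20 to 0.019), Fcgr3 (-0.0046 to 0.075), Fcgr4 (-0.13 to 0.035), Itgax (-0.097 to 0.18) and Itgb2 (-0.012 to 0.016), and for the difference of Fcgr1 (-0.010 to 0.20), Fcgr3 (-0.090 to 0.10) and Fcgr4 (-0.058 to 0.11). Of the pathway genes, Skap2 turned to -0.11 in WT and to -0.036 in the difference with the offset. The counts of list genes called lower with PF in WT also moved under alternatives other than leaving out a library. They ranged from 1 to 7 for ITAM signalling, 4 to 10 for integrin activation and 2 to 9 for the actin machinery. Library size alone moved the median of all genes by 0.18 between genotypes with vehicle and 0.15 with PF, and the share of lower calls from 50.3% to 27.1% and from 48.7% to 28.3%. In WT with PF that share went from 56.2% to 36%. The causes were not tested. The labels give no replicate numbers on which to pair libraries. A fit with the column number as a replicate block, added after seeing the data, also called 2 of the 9 genes with PF in WT, and among the 9 genes it changed 1 call, that of Itgal between the genotypes with vehicle (adjusted p = 0.040).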
